A study of Mus musculus with 5 samples.

Results

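The calcitonin and adrenomedullin family was followed in the uterus of pseudopregnant mice through 9 genes, chosen by their symbols from the 28666 genes of the count table. They were 4 peptide ligands (Calca, Calcb, Adm and Adm2), 2 receptors (Calcr and Calcrl) and 3 receptor partners (Ramp1, Ramp2 and Ramp3). All 9 genes were listed, and 7 had enough counts for a test. Calcb and Calcr did not pass the filter on low counts.

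Calca yields calcitonin or the neuropeptide CGRP (calcitonin gene-related peptide), depending on how its transcript is spliced, and Calcb encodes a second form of CGRP. Adm encodes adrenomedullin, a peptide that widens blood vessels, and Adm2 encodes the related peptide intermedin. The receptor protein of Calcrl reaches the cell surface together with a receptor activity-modifying protein, or RAMP, which sets its preference. With the product of Ramp1 it forms the CGRP receptor, and with that of Ramp2 or Ramp3 an adrenomedullin receptor. Calcr encodes the calcitonin receptor, which forms amylin receptors with RAMPs. In the uterus, calcitonin is known as a progesterone-induced product of the epithelium before implantation, and CGRP and adrenomedullin are known to relax smooth muscle.

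The uteri came from ICR females aged 6 to 8 weeks. They had been caged with vasectomized C57BL/6 males, so that they received seminal plasma (SP) without sperm and became pseudopregnant. The aged-SP group (replicates 1 and 4) was mated with males aged 12 to 18 months and the young-SP group (replicates 1, 2 and 4) with males aged 12 to 14 weeks. Collection is given as 3.5 days after caging in the design text and as 3.0 days post coitum (dpc) in the methods. The labels name no genetic change and no agent in either group. Whether a library held 1 female or a pool is not given in the sources used here, so p-values measure only the spread between these libraries. Whole uterus mixes cell types, and fewer cells of a type cannot be told apart from less RNA per cell.

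The 5 libraries held between 15071914 and 16728601 counts, and each pair of them differed by more than sampling noise. Replicate 1 of the young-SP group stood apart from the other young-SP libraries. Without it, the number of called genes over the whole table was 562, against 25 with it. A gene was called when its edgeR quasi-likelihood adjusted p was under 0.05 and its absolute log2 fold change was over 1. Markers of stroma, myometrium, epithelium and endothelium were present in every library, as in uterus.

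The receptor side of the family was far more abundant than the ligand side. On the FPKM scale (fragments per 1000 bases of gene and 1000000 counts of the library), which allows levels of different genes to be compared, Ramp1 stood highest, at 42.7 ± 6.34 (SD, n = 5). Calcrl followed at 18.05 ± 3.28 and Ramp2 at 15.2 ± 1.51 FPKM. Ramp3 stood at 7.14 ± 2.81 and Adm at 4.71 ± 0.910 FPKM. The remaining ligands were low, with Calca at 1.08 ± 0.868, Adm2 at 0.293 ± 0.374 and Calcb at 0.131 ± 0.105 FPKM. Calcr was nearly absent, at 0.00635 ± 0.00870 FPKM.

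Ramp1 exceeded Calcrl in 5 of 5 libraries, and their ranges were separate. Calcrl exceeded Ramp2 in only 4 of 5 libraries. Ramp3 exceeded Adm in 5 of 5 libraries although their ranges overlapped, and Adm2 and Calcb could not be ordered, with Adm2 higher in 2 of 5. The Ramp2 level depends on its length, since 1103 of its 3301 exonic bases overlap exons of Vps25 on the same strand. With the length of the other 2198 bases, Ramp2 came to 22.9 ± 2.27 FPKM and exceeded Calcrl in 4 of 5 libraries. The order of Calcrl and Ramp2 is therefore not settled by these counts.

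**Figure D1:**
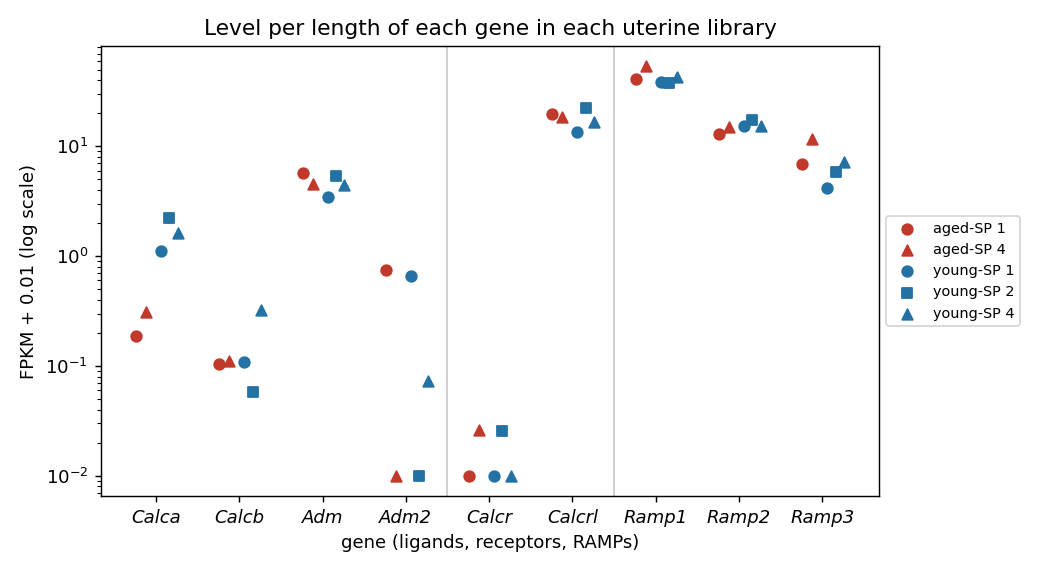
FPKM of the 9 genes in each of the 5 libraries, plotted as FPKM + 0.01 on a log axis so that 0 can be shown, with 1 point per library, colour for the group and shape for the replicate. Calca is the gene whose 2 aged-SP points lie farthest below the 3 young-SP points, at 0.177 and 0.303 against 1.11, 2.22 and 1.62 FPKM.

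Calca lies on the reverse strand of chromosome 7 at 114631478 to 114636357 (GRCm38), with 7 transcripts in the GENCODE M21 annotation. The exon that ends the calcitonin message (114633293 to 114633785) and the exon that carries CGRP (114632416 to 114632599) belong to different transcripts. The counts were given per gene, so calcitonin and CGRP messages could not be told apart. Calcb lies nearby on the forward strand, at 114718643 to 114723365. The coding parts of the CGRP exons of the 2 genes are shown because their likeness limits how reads are assigned. Capitals mark the positions at which the aligned exons differ, and both are given 5′ to 3′ on the strand of the gene.

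Calca, GENCODE M21 transcript sequence, chr7:114632443-114632599, reverse strand: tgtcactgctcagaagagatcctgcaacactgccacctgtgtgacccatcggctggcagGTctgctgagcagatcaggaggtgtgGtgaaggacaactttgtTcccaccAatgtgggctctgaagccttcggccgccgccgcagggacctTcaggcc
Calcb, GENCODE M21 transcript sequence, chr7:114721975-114722134, forward strand: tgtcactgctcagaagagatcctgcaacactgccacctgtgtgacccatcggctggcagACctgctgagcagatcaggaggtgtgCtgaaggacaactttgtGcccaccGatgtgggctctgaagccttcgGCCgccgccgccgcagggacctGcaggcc

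Of 160 aligned columns, 151 were identical, with 6 mismatches and 3 gap columns, and the longest identical run was 59 bases. Over the whole Calca transcripts, only 12 of 1678 stretches of 50 bases (0.715%) also occurred in Calcb. Reads from this exon could still be shared between the genes, and Calcb counts are uncertain for that reason.

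Calca (ENSMUSG00000030669) had the largest fitted difference between the groups among the 7 tested members. It had 5 and 8 counts in aged-SP replicates 1 and 4. Young-SP replicates 1, 2 and 4 had 30, 62 and 41 counts. Both aged-SP libraries lay below all 3 young-SP libraries. Its mean CPM (counts per 1000000 after TMM scaling) was 0.407 ± 0.148 with aged SP (SD, n = 2) and 2.76 ± 0.895 with young SP (SD, n = 3). The ratio of these means was 6.78-fold lower with aged SP.

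The edgeR log2 fold change of Calca was -2.74 with a standard error of 0.48 and a 95% interval from -3.93 to -1.56. Its adjusted p over all 17013 tested genes was 0.0830, so Calca was not called. With DESeq2, the tool named in the methods, the log2 fold change was -2.77 and the adjusted p was 0.000970, so Calca was called there. It was also called by edgeR without young-SP replicate 1 (adjusted p 0.0352) and with no filter on low counts (adjusted p 0.0498). The call thus depended on the tool and on the young-SP replicate 1 library. The direction was the same in 13 of 13 alternatives, but with separate groups no alternative could turn it, so this adds no support. Where both aged-SP libraries were kept, the adjusted p ranged from 0.000970 to 0.238.

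The depth behind Calca was small. Per 1000000 counts of a library, the exact 95% binomial interval of aged-SP replicate 1 reached from 0.0970 to 0.698. That of aged-SP replicate 4 reached from 0.220 to 1.01. The lowest bound among the young-SP libraries was 1.26, in replicate 1. No aged-SP interval met a young-SP interval, and they cover counting error only.

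**Figure D2:**
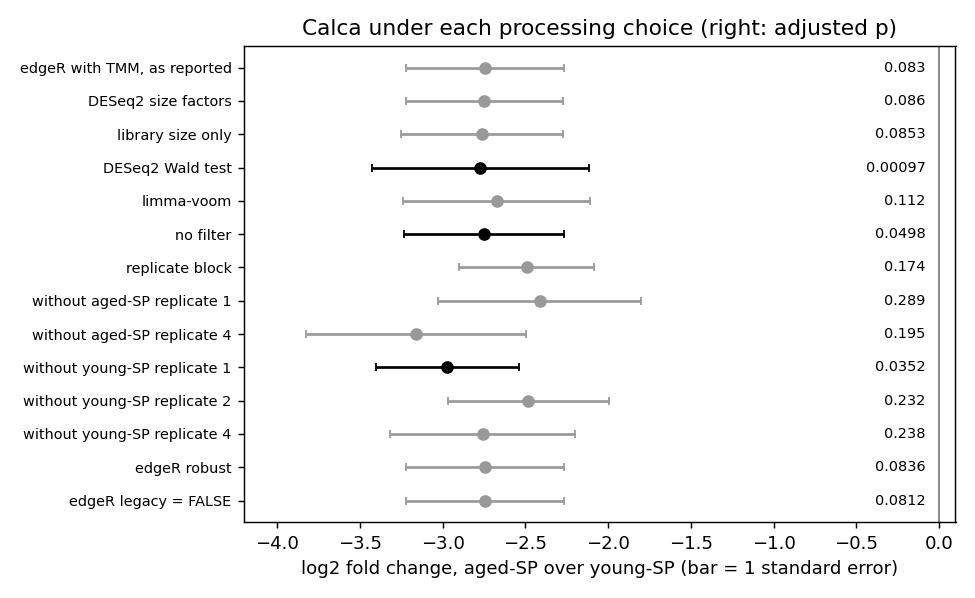
Log2 fold change of Calca, aged-SP over young-SP, with the standard error as bars, as reported and under each alternative that tested it, with the adjusted p on the right and points with an adjusted p under 0.05 in black. Every point lies below 0, between -3.16 and -2.41, while the adjusted p crosses 0.05 in 3 of the alternatives.

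The 250 bases before the Calca start (RefSeq, chr7:114636358-114636607 of GRCm38.p6, reverse strand) are shown because Calca was the member that differed most. Capitals mark a cAMP response element (CRE) half-site, TGACG, which was searched on both strands and can lie within a longer CRE.

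Calca promoter: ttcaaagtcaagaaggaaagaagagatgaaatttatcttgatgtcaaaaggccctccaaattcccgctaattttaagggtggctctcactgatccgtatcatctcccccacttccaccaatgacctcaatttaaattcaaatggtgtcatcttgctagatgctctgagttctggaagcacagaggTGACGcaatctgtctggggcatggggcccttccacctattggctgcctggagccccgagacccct

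The half-site stood in 17.8% of 32851 RefSeq promoters of the same length. Promoters of 7 of the 9 members were matched by symbol, and Calca and Calcr held the half-site. The progesterone receptor half-site AGAACA was in none of the members' windows, against 16.1% of all promoters. The hypoxia core ACGTG was likewise in none, against 16.6%. The E-box CANNTG was in the windows of Calca, Adm2, Calcr, Ramp1 and Ramp3, against 66.2% of all promoters. These are matches of letters and say nothing about binding.

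Adm was the most abundant ligand, and its groups overlapped. Its CPM was 9.43 and 7.36 in the aged-SP libraries and 5.57, 8.51 and 7.28 in the young-SP libraries. The edgeR log2 fold change was 0.24 with a 95% interval from -0.39 to 0.86, and the adjusted p was 0.644. A 2-fold difference in either direction lay outside that interval. Adm lies on chromosome 7 at 110627661 to 110629820, on the forward strand.

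Adm2 varied between libraries of the same group. Aged-SP replicates 1 and 4 had 13 and 0 counts, and the young-SP libraries had 11, 0 and 1. Replicate 1 was thus the high library of both groups, and the groups overlapped. The edgeR log2 fold change was 0.65, with an interval from -3.42 to 4.71 and an adjusted p of 0.862. A difference in either direction could not be told from the spread between these libraries. Adm2 lies on the forward strand of chromosome 15, at 89322972 to 89324728.

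Calcb had 2 counts in each aged-SP library and 2, 1 and 6 counts in the young-SP libraries. At this depth 3 counts, taken as the floor, come to between 0.179 and 0.199 per 1000000, so that a difference could not be measured. Calcr had 1 count in aged-SP replicate 4, 1 in young-SP replicate 2 and 0 elsewhere, so no fold is given. Calcr lies on chromosome 6 at 3685680 to 3764714 on the reverse strand.

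Calcrl, the receptor shared by CGRP and adrenomedullin, had 97.1 and 89.9 CPM in the aged-SP libraries and 66.2, 106 and 81.5 CPM in the young-SP libraries. Both aged-SP values lay within the range of the young-SP values. By edgeR the log2 fold change was 0.14 with an interval from -0.37 to 0.66 and an adjusted p of 0.738. Calcrl lies on chromosome 2 at 84330626 to 84425411, on the reverse strand.

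Ramp1, which makes Calcrl a CGRP receptor, had 124.5 and 162 CPM in the aged-SP libraries and 116.7, 112 and 131 CPM in the young-SP libraries. Young-SP replicate 4 lay above aged-SP replicate 1, so the groups overlapped. Its edgeR log2 fold change was 0.25 (interval -0.10 to 0.61), with an adjusted p of 0.391. Ramp1 lies on chromosome 1 at 91179822 to 91225196, on the forward strand.

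Ramp2, the partner for adrenomedullin in vessels, was at 43.6 and 50.02 CPM in the aged-SP libraries and at 51.04, 55.98 and 50.87 CPM in the young-SP libraries. The groups did not overlap, although aged-SP replicate 4 was close to young-SP replicate 4. Its edgeR log2 fold change was -0.17 (interval -0.43 to 0.09), with an adjusted p of 0.433. Of its stretches of 50 bases, 30.7% also occur in Vps25, so reads at that end are uncertain. Ramp2 lies on chromosome 11 at 101246028 to 101259546, on the forward strand.

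Ramp3, the other adrenomedullin partner, was at 9.67 and 16.2 CPM in the aged-SP libraries and at 5.75, 7.86 and 9.88 CPM in the young-SP libraries. Young-SP replicate 4 lay just above aged-SP replicate 1. The edgeR log2 fold change was 0.72 with a standard error of 0.32, and its interval reached from -0.08 to 1.53. The adjusted p was 0.306, so the difference was not beyond the spread between replicates by this test. Ramp3 lies on chromosome 11 at 6658521 to 6677475. Of its exonic bases, 101 overlap the antisense gene Gm11978, and strand-specific counting is not given in the sources used here.

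Across the family, 0 of 7 tested members were called by edgeR, where 0.147% of all tested genes were called. At an unadjusted p under 0.05 edgeR gave 1 member, Calca, where 19.0% of all tested genes had such a p. DESeq2 called 1 member, Calca, against 3.60% of its genes with an adjusted p, and limma-voom called 0, against 0.159%. Without young-SP replicate 1 edgeR called 1 member, Calca, against 3.30% of all genes, and with no filter again Calca alone, against 0.708%. In Calca and Ramp2, 2 of 7 tested members, aged-SP and young-SP values were separate, where 38.8% of all tested genes were separate. Both were lower with aged SP, as 19.3% of all tested genes were without overlap.  The log2 fold change was above 0 in 5 and below 0 in 2 members, with a median of 0.24 beside 0.0072 over all tested genes.

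**Figure D3:**
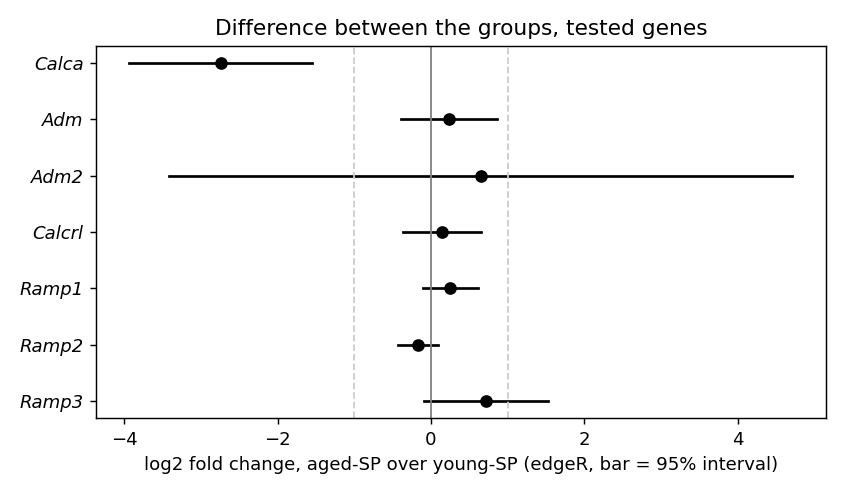
EdgeR log2 fold change, aged-SP over young-SP, of the 7 tested members with their 95% intervals as bars and dashed lines at -1 and 1. Only the interval of Calca, from -3.93 to -1.56, lies wholly on one side of 0, and that of Adm2 is the widest, from -3.42 to 4.71.

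Shares within a library do not depend on scaling between libraries. Calca made up 2.62% and 6.14% of the summed FPKM of the 4 ligands in the aged-SP libraries, and 21.0%, 29.1% and 25.0% in the young-SP libraries. Adm made up 85.0% and 91.8% with aged SP, and 64.7%, 70.3% and 69.1% with young SP. Both shares separated the groups without overlap, where 38.8% of all tested genes were separate by CPM. The shares are parts of the same sum, so a lower Calca share raises that of Adm. By its own CPM, Adm overlapped between the groups. The differences of the means were -20.6 percentage points for Calca and 20.4 for Adm. Each gave p = 0.2 in a two-sided exact permutation test, the smallest p that 2 against 3 libraries allow (0.28 after Benjamini-Hochberg adjustment over 7 shares).

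Among the 3 RAMPs, Ramp1 held 67.1% and 66.6% of the summed FPKM with aged SP and 66.3%, 62.1% and 65.8% with young SP. The Ramp2 share was 21.5% and 18.8% with aged SP and 26.5%, 28.4% and 23.4% with young SP. The Ramp3 share was 11.4% and 14.6% against 7.16%, 9.53% and 10.9%. The aged-SP libraries thus had a lower share of Ramp2 and higher shares of Ramp1 and Ramp3 without overlap, by -5.93, 2.11 and 3.81 percentage points. By CPM, 38.8% of all tested genes did not overlap, and these shares are parts of the same sum. The Ramp3 difference was 2.23 points without aged-SP replicate 4 and 1.96 points from counts without gene length. That of Ramp1 was 0.801 points without young-SP replicate 2 and 4.06 points from counts without gene length. All 3 RAMP shares gave an exact permutation p of 0.2. The summed RAMP level was 3.73 ± 0.907 (SD, n = 2) times that of Calcrl with aged SP and 3.67 ± 0.810 (SD, n = 3) times with young SP.

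**Figure D4:**
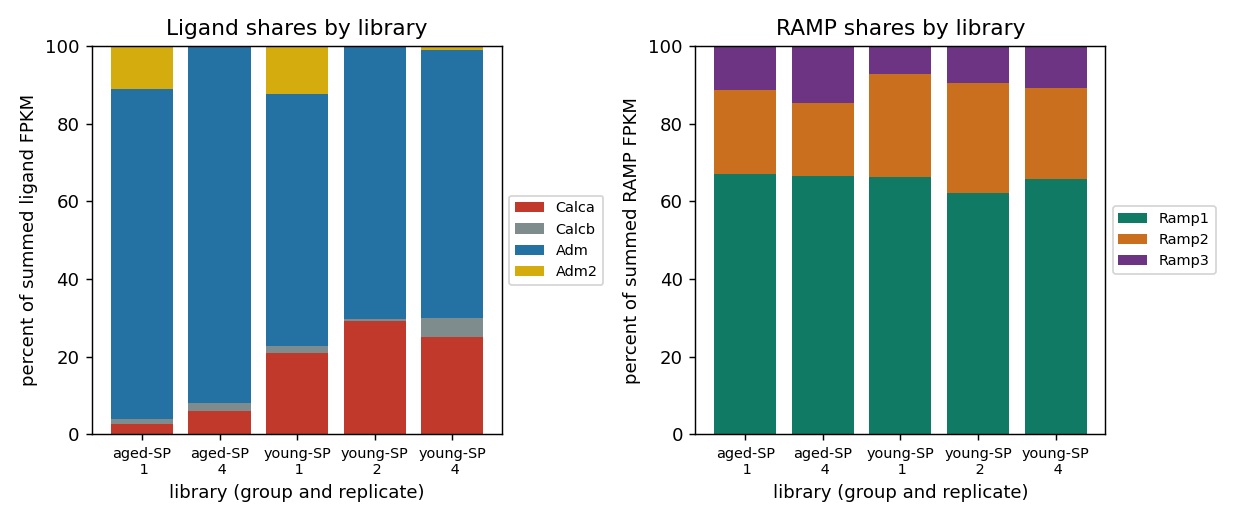
Share of each ligand in the summed ligand FPKM and of each RAMP in the summed RAMP FPKM, in percent, as stacked bars from 0 for the 5 libraries. Calca takes 2.62% and 6.14% of the ligand bars in the aged-SP libraries and between 21.0% and 29.1% in the young-SP libraries.

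The genes most like Calca over the 5 libraries, by the root mean square difference of centred log2 CPM among 12592 genes, were Adam12, Col9a2 and Maob. Adam12, a metalloprotease, differed by 0.0926 where the median gene differed by 1.25, and its CPM was 20.01 and 27.6 with aged SP and 81.8, 150 and 115 with young SP. Its edgeR log2 fold change was -2.28 (adjusted p 0.0734). Col9a2, a collagen chain, differed by 0.230, and Maob, a monoamine oxidase, by 0.233. Likeness to Adm2 was greatest for Ifne (0.210), Nlrp3 (0.323) and Cxcl9 (0.353), which were all high in replicate 1 of both groups. Likeness to Ramp3 was greatest for Mustn1 (0.0638), Eepd1 (0.0666) and Mxra8 (0.0716), where the median gene differed by 0.518. These distances are descriptions over 5 libraries that share the group difference. Those of Adm2, with 0 to 13 counts, depend on the prior count of 2 in the log2 CPM. To a lesser extent this holds for Calca, with 5 and 8 counts in the aged-SP libraries.

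Genes that make, clear or transmit the peptides were read from lists of 50 genes, of which 48 were listed and 41 tested. By edgeR 0 of 41 were called, and 5 higher and 7 lower had an unadjusted p under 0.05, beside 19.0% of all tested genes. DESeq2 called 3 higher, Pcsk6 among them, and 2 lower, beside 3.60% of all genes (Vipr2 and Pcsk5, the latter named after its values were seen). Among the 7 tested genes of peptide processing, 6 had a log2 fold change above 0, with a median of 0.19. Pcsk6, a proprotein convertase, had 68.9 and 33.2 CPM with aged SP and 13.9, 16.9 and 10.9 CPM with young SP. Its log2 fold change was 1.87 with a standard error of 0.34 (edgeR adjusted p 0.0889), and its exons overlap those of Gm45213. Cpe, a carboxypeptidase that trims peptide hormones and the most abundant gene of the list, had a log2 fold change of 0.47 (edgeR adjusted p 0.328).

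Among the 6 genes of clearance and binding, the median was -0.06. Dpp4, a dipeptidyl peptidase, had 134 and 92.6 CPM with aged SP and 70.0, 70.1 and 64.2 CPM with young SP (edgeR log2 fold change 0.74, adjusted p 0.120). It did not pass the test, although both aged-SP values lay above all young-SP values. The 4 accessory and G protein genes had a median of 0.02, with Gnas, the stimulatory G protein that couples these receptors to cAMP, at 0.14 (edgeR adjusted p 0.520) and Gnaq at -0.04.

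Of the 16 tested genes of cAMP and kinases, 8 were above and 8 below 0, with a median of 0.02 and 3 lower at an unadjusted p under 0.05, a share like the 19.0% of all tested genes. Adcy2, an adenylyl cyclase, had a log2 fold change of -0.84 (edgeR adjusted p 0.194), and Prkar1a, a regulatory subunit of protein kinase A, was the most abundant. All 4 desensitisation genes were above 0, with a median of 0.26, and Arrb2, an arrestin, was at 0.39 (edgeR adjusted p 0.199) where Arrb1 was the most abundant. The amylin gene Iapp was not analysed here. Of the 4 tested other receptors that RAMPs can bind, Vipr2, a receptor for vasoactive intestinal peptide, had 7.07 and 5.37 CPM with aged SP and 17.95, 15.4 and 19.8 CPM with young SP. Its log2 fold change was -1.51 with a standard error of 0.21 (edgeR adjusted p 0.0734). Pth1r, the most abundant of them, was at -0.69 (edgeR adjusted p 0.214). Exons of Dpp4, Gnas, Adcy2, Arrb2 and Pth1r here, and of Mxra8, Pdgfra, Sox17, Krt8 and Uchl1 elsewhere in the text, overlap those of another gene, so their counts are uncertain to that extent.

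**Figure D5:**
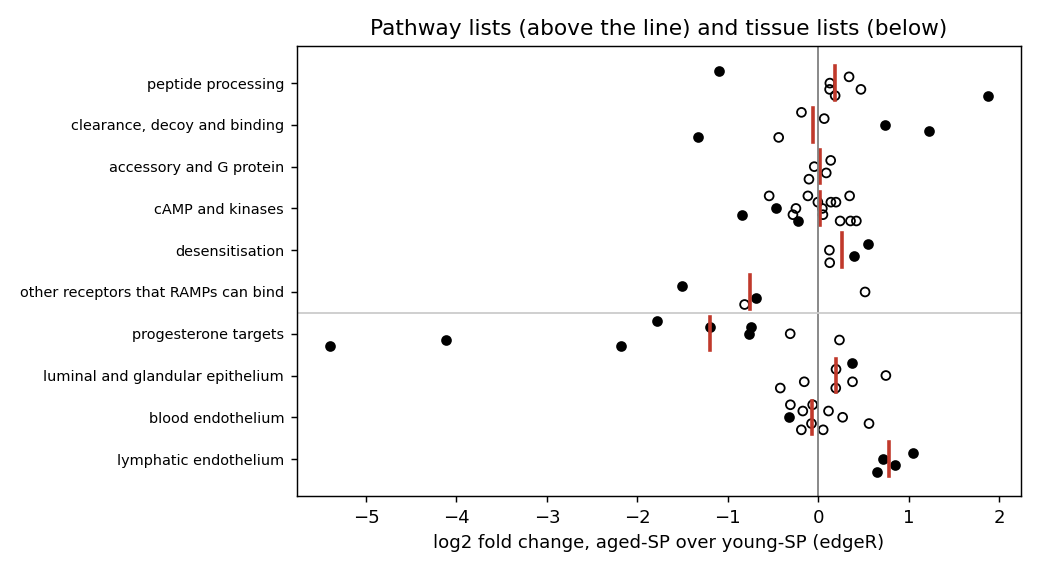
EdgeR log2 fold change, aged-SP over young-SP, of each tested gene of the pathway lists (upper part) and of 4 marker lists (lower part), 1 point per gene, filled where the unadjusted p was under 0.05, with a red line at each list's median. The progesterone targets lie mostly below 0, with a median of -1.20, and the 4 lymphatic genes above 0, with a median of 0.79. The lowest point among the progesterone targets is Areg, with 1 and 0 counts in the aged-SP libraries, whose fitted value depends on the prior count.

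Markers of hormone response, epithelium and glands are given beside Calca, and their part in its values was not tested. The 9 progesterone targets summed to 475 and 502 CPM with aged SP and to 806, 1186 and 1345 CPM with young SP. By edgeR 8 of 9 had a log2 fold change below 0 and 7 had an unadjusted p under 0.05, beside 19.0% of all tested genes, with a median of -1.20 that was the same with Areg at its bound. DESeq2 called 5 of them lower, beside 3.60% of all genes in either direction. Lrp2, an endocytic receptor, was at 24.8 and 17.3 CPM against 176, 362 and 554 CPM (edgeR log2 fold change -4.11, adjusted p 0.0734). The exception was Fkbp5, a chaperone partner of steroid receptors, at 0.23.

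The 6 estrogen targets summed to 9551 and 8753 CPM with aged SP and to 7637, 442 and 1164 CPM with young SP, so that replicate 1 of the young-SP group was close to the aged-SP libraries. Their median was 1.11, with 5 above 0, and C3 was at 2.13 (edgeR adjusted p 0.196). Ltf, lactotransferrin, had the highest level, with 2708 and 4330 CPM against 3632, 28.3 and 394 CPM. The 7 epithelial markers summed to 1210 and 1248 CPM with aged SP and to 1544, 782 and 963 CPM with young SP, a range that held both aged-SP values. Their median was 0.20, with the keratin genes Krt18 as that of smallest p (edgeR adjusted p 0.178) and Krt8 as the most abundant. The gland markers summed to 4171 and 3064 CPM with aged SP and to 710, 285 and 292 CPM with young SP. In the aged-SP libraries and young-SP replicate 1 the sum was mostly the gland proteases Prss28 and Prss29. In young-SP replicates 2 and 4 it was mostly Sox17, at 236 and 253 CPM. Of the 6 gland genes 3 had a log2 fold change above 0 and 3 below. Sox17, a transcription factor, was at -0.97 (edgeR adjusted p 0.0877). Cxcl15, a chemokine of the glands, had 2.90 and 1.92 CPM with aged SP and 8.69, 20.2 and 8.14 CPM with young SP. Its edgeR log2 fold change was -2.35 (adjusted p 0.116), and it was the gland gene that DESeq2 called lower. DESeq2 gave no p for Prss28 and Prss29, so it could not call them.

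Calca is also a product of sensory neurons, whose markers were low, like Calca itself, and their part in its values was not tested. The 6 listed neuron genes summed to 1.69 and 0.704 CPM with aged SP and to 1.13, 2.36 and 1.74 CPM with young SP. Tubb3, a neuronal tubulin, had 0.0605 and 0.0640 CPM with aged SP and 0.125, 0.473 and 0.267 CPM with young SP. These were 1 and 1 counts against 2, 8 and 4 counts, near the floor of 3 counts, and Tubb3 was not tested. Its groups were separate, where 38.8% of all tested genes were separate. Prph, an intermediate filament of peripheral neurons, had 0.423 and 0.128 CPM against 0.375, 0.532 and 0.601 CPM, which overlapped. Tac1, which encodes substance P, was at 0 in both aged-SP libraries and at 0.0625, 0 and 0.134 CPM in the young-SP libraries, and Snap25 was at 0 in all libraries but young-SP replicate 2. Trpv1 had 0.121 and 0 CPM with aged SP and 0, 0.296 and 0 CPM with young SP, which overlapped. Uchl1, the most abundant gene of the list, was the only gene of it that could be tested. It had 1.09 and 0.512 CPM with aged SP and 0.563, 0.828 and 0.734 CPM with young SP, which overlapped. Its edgeR log2 fold change was 0.18 (interval -0.99 to 1.35), with an adjusted p of 0.871.

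Lymphatic and blood endothelial markers are given beside Calcrl, Ramp2 and Ramp3, whose edgeR log2 fold changes were 0.14, -0.17 and 0.72. Their part in the values of these members was not tested. The lymphatic markers summed to 299 and 305 CPM with aged SP and to 133, 209 and 188 CPM with young SP. Each of the 4 tested genes was above 0 with an unadjusted p under 0.05, beside 19.0% of all tested genes, and 0 were called by edgeR or DESeq2. Mmrn1 was the most abundant. Lyve1, a hyaluronan receptor of lymphatic vessels, had 87.8 and 92.0 CPM against 43.4, 52.8 and 53.1 CPM (edgeR log2 fold change 0.85, adjusted p 0.0734). Blood endothelial markers summed to 749 and 780 CPM against 589, 964 and 741 CPM, with a median of -0.07, and Pecam1 was the most abundant and Emcn the gene of smallest p (edgeR adjusted p 0.258).

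The summed levels of stroma (3343 and 4074 CPM against 3325, 4117 and 4704 CPM) and myometrium (8502 and 10827 CPM against 9304, 8954 and 13535 CPM) overlapped between the groups. Their medians were -0.28 and -0.08, with Pdgfra, a stromal receptor, at -0.65 (edgeR adjusted p 0.120). Dcn, a matrix proteoglycan, was the most abundant stromal gene, and Myh11, smooth muscle myosin, the most abundant myometrial gene beside Acta2, which had the smallest p (edgeR adjusted p 0.276). Leukocyte markers summed to 188 and 220 CPM with aged SP and to 264, 151 and 192 CPM with young SP, with Ptprc as the most abundant and Cd68 as the gene of smallest p (edgeR adjusted p 0.328). By edgeR 0 of the 59 tested markers were called, with 7 higher and 13 lower at an unadjusted p under 0.05, beside 19.0% of all tested genes. DESeq2 called 6, all lower, beside 3.60% of all genes. It gave an adjusted p to 57 markers. Among those without one were Prss28 and Prss29, whose DESeq2 log2 fold changes were 5.18 and 4.11, so these could not be called. Without young-SP replicate 1, edgeR called 11 markers and 3 of the pathway genes, beside 3.30% of all genes.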

How the data were processed

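Whole-uterus RNA was extracted with Trizol and sequenced after preparation with the NEBNext Ultra kit. The submitters' processing notes name Bowtie2 2.2.3, HISAT2 2.1.0 and HTSeq 0.6.0. The authors deposited unnormalized counts of each gene in each library, which were used for all tests. The FPKM values deposited by the authors equal the counts divided by gene length and total count, which was checked over 28666 genes, and served to compare levels between genes. The authors' own DESeq2 comparison (fold changes, p-values) was not used. A further young-SP sample, which the paper reports leaving out as an outlier in hierarchical clustering, was not analysed here. The young-SP spread is therefore that of the samples kept.

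Groups were compared with edgeR 4.0.16 (filterByExpr, TMM, glmQLFit, glmQLFTest; adjusted p under 0.05 and absolute log2 fold change over 1) in R 4.3.3. Of the genes, 17013 were tested. Adjustment was by Benjamini-Hochberg over all of them. Log2 CPM used a prior count of 2. Alternatives were DESeq2 1.42.0, limma-voom (limma 3.58.1), other scalings and filters, a replicate block and libraries left out in turn. Tests were checked on 5 simulated datasets of 17013 genes, 200 of them with a planted absolute log2 fold change of 2. Of the calls, 23.6% were false with DESeq2, 8.79% with edgeR and 8.34% with limma-voom. The planted genes recovered were 82.5%, 71.5% and 69.2% in the same order. No simulated library stood apart as young-SP replicate 1 does. DESeq2 was given the filtered genes there, but all genes in the data. These shares are therefore not the error rates of the calls above, and they average over genes of all depths. Shares were compared by exact permutation. Sequences came from GENCODE M21 transcripts and RefSeq promoters. In each list the genes of smallest p and of highest level were named by rule. Pcsk5, Fkbp5, Areg, Prss28, Cxcl15, Tubb3, Prph, Tac1, Trpv1 and Snap25 were named after their values were seen. Members and lists were chosen with earlier results of these data known. The values of 1 gene of the lists are not reported here.

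Total counts of 15071914 to 16728601 give a floor of 3 counts, or 0.179 to 0.199 per 1000000 counts. Intervals cover counting error only, as the reads have no molecular identifiers in the files.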

Additional observations from a re-analysis of the deposited data

How the results depend on the processing

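Among the members, 0 genes were called by edgeR, against 1 (Calca) with DESeq2, with no filter on low counts, or by the unadjusted p. With single libraries left out the number lay between 0 and 1, with 1 without young-SP replicate 1. Of the pathway genes 5 were called by DESeq2 and 2 with no filter, and between 0 and 3 with libraries left out (3 without young-SP replicate 1). Of the markers 6 were called by DESeq2 and 1 with no filter, and between 0 and 11 with libraries left out (11 without young-SP replicate 1). Non-overlapping members numbered between 2 and 4 with libraries left out, where between 46.3% and 63.9% of all tested genes did not overlap. Over all genes, calls were 25 by edgeR, 632 by DESeq2, 27 by limma-voom and 203 with no filter. Calca had too few counts for the fit that required 10 in every sample.

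The Calca adjusted p was under 0.05 in 3 alternatives: DESeq2 (0.000970), no filter (0.0498) and without young-SP replicate 1 (0.0352). With the replicate block its log2 fold change was -2.49 (adjusted p 0.174), and over all genes the calls went from 25 to 2. Replicate numbers 1 and 4 are shared by the groups, and the deviations of these pairs correlated at 0.152 and 0.136, but the labels do not say that a number marks a shared batch or animal. The Adm2 log2 fold change was -0.081 with the block, and between -5.04 and 3.36 with libraries left out. That of Calcrl lay between -0.015 (without young-SP replicate 1) and 0.34 with libraries left out. The directions of Calca, Adm, Ramp1, Ramp2 and Ramp3 held under all alternatives that tested them, but single libraries moved the sizes. Ramp3 was at 0.30 and Ramp1 at 0.05 without aged-SP replicate 4, while without aged-SP replicate 1 they were at 1.05 and 0.43. Adm was at 0.05 without aged-SP replicate 1 and at 0.41 without aged-SP replicate 4. Leaving out young-SP replicate 1 put Adm at 0.08, and leaving out young-SP replicate 2 put it at 0.39. Ramp2 was at -0.07 without aged-SP replicate 1 and at -0.27 without aged-SP replicate 4. Where 1 aged-SP library was left, it was assumed to vary like the others. The robust and legacy settings of edgeR and the Ramp2 length without Vps25 were chosen after seeing the data.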
